A study of Mus musculus with 8 samples.

Results

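Metallothionein and zinc transport genes were described in fiber cells (FC) of the lens, in mice that breathed cigarette smoke (CS) and in untreated control (Ct) mice. The 10 genes, taken by symbol from the 35275 genes listed in the deposited table, were the metallothioneins Mt1, Mt2 and Mt3, the metal-sensing transcription factor Mtf1, the zinc exporters Slc30a1, Slc30a5 and Slc30a9, and the zinc importers Slc39a1, Slc39a6 and Slc39a7. RNA was sequenced from 8 libraries, 4 per group, and every library was made from a pool of lenses of 4 mice of the strain C57BL/6 (C57BL/6J in the study's methods). Smoke exposure ran for 5 hours on 5 days of each week over 3.5 months, starting around birth, while the age-matched Ct mice were kept in the animal facility and received no treatment. Pools held mice of a single sex, and the sex of each pool is not given in the labels, although Xist was at most 0.0113 FPKM in replicates 1 and 2 and at least 41.1 FPKM in replicates 3 and 4 of both groups. Values are FPKM, fragments scaled to gene length and to the mapped reads of a library, as computed by the authors, and can be compared between genes because they are scaled to length.

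Metallothioneins are small, cysteine-rich proteins that bind zinc, copper and cadmium. Free zinc in the cytosol is sensed by MTF1, which binds metal response elements in the promoters of metallothionein genes and of the zinc exporter gene Slc30a1, and cadmium, a metal of cigarette smoke, raises metallothionein RNA in many tissues. Transporters of the SLC30 family carry zinc out of the cytosol, into organelles or out of the cell, and those of the SLC39 family carry it into the cytosol. Mature lens fiber cells have lost their nuclei and organelles, so that their RNA comes largely from the younger outer fibers.

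Depth was read from the steps of the FPKM values, which are each worth 1 read, and 99.8% of the 9794 genes whose group mean reached 1.0 FPKM in CS-exposed or Ct mice gave whole reads (tolerance 0.01 reads). The libraries held an estimated 18100000 to 23300000 fragments. All 15 fiber cell markers passed this filter, with Cryaa, a crystallin of the lens, at 90037 to 101638 FPKM and Mip, a fiber cell water channel, at 2364 to 2532 FPKM. Markers of other cell types were present at lower levels, and libraries stood apart in them. The summed level of 9 lens epithelium markers was 68.2 to 127 FPKM in Ct libraries, highest in Ct replicate 3, and 55.3 to 86.4 FPKM in CS-exposed libraries. The 10 rod photoreceptor markers summed to 11.2 to 29.6 FPKM in Ct and 32.2 to 93.4 FPKM in CS-exposed libraries, and 8 of the 9 that were tested had an unadjusted limma p under 0.05, all higher in CS-exposed mice, where 4.83% of all genes tested had such a p and 2.75% were higher. Such a p was also found for 1 of 8 lens epithelium markers, lower in CS-exposed mice (7 of the 8 had a log2 fold change below 0, with a median of -0.32), for 2 of 4 glial markers, 1 in each direction, for 2 of 15 fiber cell markers, both higher, and, higher as well, for 1 of 2 red blood cell markers and the 1 marker of pigmented cells tested. The 6 markers of pigmented cells summed to 0.536 to 2.72 and 1.29 to 6.80 FPKM, the 5 glial markers to 6.46 to 9.81 and 7.53 to 13.2 FPKM, and the 5 red blood cell markers to 0.265 to 1.73 and 0.50 to 22.8 FPKM. The 5 leukocyte markers summed to 0.0437 to 0.807 and 0.273 to 0.459 FPKM, and no marker of these lists was at 0 in all 8 libraries. In pools of tissue, fewer cells of a type and less RNA per cell cannot be told apart.

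The metallothionein genes lie in a row on chromosome 8 of GRCm38 (GENCODE M21), all on the plus strand: Mt4 from 94137197 to 94139031, Mt3 from 94152607 to 94154146, Mt2 from 94172664 to 94173568 and Mt1 from 94179082 to 94180327, with 5513 bases between Mt2 and Mt1. The 250 bases before the RefSeq start of each gene (GRCm38.p6) were searched on both strands for the cores of the metal response element, TGCACNC and TGCGCNC. Promoter sequence was matched and searched for 9 of the 10 genes. The 3 sequences below are shown because they belong to Mt1, Mt2 and Slc30a1, the genes of this group best known to be controlled by MTF1. They are written 5′ to 3′ on the plus strand, with the matched cores in capitals. Mt2 is shown at chr8:94172368-94172617, Mt1 at chr8:94178839-94179088 and Slc30a1 at chr1:191906531-191906780.

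Mt1: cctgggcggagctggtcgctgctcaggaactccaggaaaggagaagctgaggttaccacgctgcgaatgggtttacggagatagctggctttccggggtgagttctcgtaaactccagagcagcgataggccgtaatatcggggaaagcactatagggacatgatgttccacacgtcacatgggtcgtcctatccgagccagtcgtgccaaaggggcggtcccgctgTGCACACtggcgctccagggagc
Mt2: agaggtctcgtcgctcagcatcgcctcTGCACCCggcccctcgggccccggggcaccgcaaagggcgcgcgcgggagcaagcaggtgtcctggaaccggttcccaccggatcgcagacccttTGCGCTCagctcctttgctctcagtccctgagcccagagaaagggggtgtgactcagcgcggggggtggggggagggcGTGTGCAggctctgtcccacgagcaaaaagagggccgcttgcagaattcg
Slc30a1: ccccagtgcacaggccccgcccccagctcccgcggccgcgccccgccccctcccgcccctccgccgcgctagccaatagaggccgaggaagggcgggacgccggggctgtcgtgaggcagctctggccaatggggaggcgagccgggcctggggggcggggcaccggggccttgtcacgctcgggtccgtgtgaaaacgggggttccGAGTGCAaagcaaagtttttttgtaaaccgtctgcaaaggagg

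The Mt2 sequence held 3 cores, beginning 223, 128 and 50 bases before the start, of which the last was read on the minus strand. At least as many were found in 1.26% of all 32851 promoters. Mt1 and Slc30a1 held 1 core each, 23 and 43 bases before the start, and Slc30a5 also held 1, where 21.4% of all promoters held at least 1. No core overlapped another. When the 50 bases after the start were included, Mt1 held 3 cores (1.97% of all promoters held as many), Mt2 4 (0.517%), Slc30a1 2 (7.11%) and Mt3 1 (25.7%). The sequences of Mtf1, Slc30a9, Slc39a1 and Slc39a7 held none in either window. These matches are descriptions of the letters and were not tested for binding.

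No gene of these 10 passed the test of a difference between CS-exposed and Ct mice, while the means of all 3 detected metallothioneins were higher in CS-exposed mice. Mt1 was the most abundant metallothionein and was read in every library, Mt2 rested on 1 to 28 reads and Mt3 on 0 to 14 reads per library, and Mt4, a metallothionein of stratified epithelia, was listed at 0 in all 8. Of the 10 genes, 7 passed the filter of a mean of 1.0 FPKM in either group, and Mt3, Mtf1 and Slc39a7 did not. Mt2 passed only through its mean in CS-exposed mice, the group in which it was higher. Among the 7 tested, 0 had an unadjusted limma p under 0.05 (4.83% of all 9794 genes had, 2.75% higher and 2.08% lower in CS-exposed mice) and 0 had an adjusted p under 0.05 (0.0102% of all genes, or 1 gene). The smallest limma p of the 7 was 0.121, and the smallest adjusted p was 0.956. No gene of the 7 had groups that did not overlap, which held for 3.08% of all genes tested. Their median log2 fold change was 0.14, with 5 above and 2 below 0, and over all genes tested the median was 0.0043, with 51.2% above 0.

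Mt1, whose protein is the general metal buffer of most tissues, was measured at 2.51, 6.00, 3.90 and 5.12 FPKM in Ct replicates 1 to 4 and at 4.30, 4.09, 7.94 and 8.05 FPKM in CS-exposed replicates 1 to 4. CS-exposed replicates 3 and 4 were above every Ct library, and replicates 1 and 2 lay within the Ct range. The reads behind these values were 27 to 64 in Ct and 49 to 94 in CS-exposed libraries. The mean was 4.38 ± 1.51 FPKM (SD, n = 4) in Ct and 6.09 ± 2.19 FPKM (SD, n = 4) in CS-exposed mice. On the log2(FPKM + 0.1) scale, which understates the change of low genes, the fold change was 0.46 (standard error 0.28, 95% interval -0.16 to 1.08, limma p = 0.128, adjusted p = 0.956, exact permutation p = 0.229). The interval corresponds to a 0.898-fold to 2.12-fold level, so that neither equal levels nor a doubling lie outside it. The smallest two-sided p of the exact test with 4 against 4 libraries is 0.0286.

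The CS-exposed libraries in which Mt1 was highest each held the most RNA of some other cell types. Of these, replicate 4 also held the least lens epithelium RNA of all 8 libraries (55.3 FPKM summed over the markers). CS-exposed replicate 3 held the most rod photoreceptor RNA (93.4 FPKM summed over the markers, against 11.2 to 59.3 FPKM in the other 7) and retinal pigment epithelium RNA (Rpe65 at 3.31 FPKM, against 0.0314 to 0.865 FPKM). CS-exposed replicate 4 held the most hemoglobin RNA (Hba-a1 at 9.46 FPKM, against 0 to 2.02 FPKM) and the most of the melanocyte gene Dct (3.52 FPKM, against 0 to 1.47 FPKM). In contrast, CS-exposed replicate 2 held 59.3 FPKM of summed rod markers and the lowest Mt1 of its group, and CS-exposed replicate 4, with the highest Mt1, held the least rod marker RNA of its group, at 32.2 FPKM. The part of these cells in the Mt1 level was not tested. Without CS-exposed replicates 3 and 4 and Ct replicate 3, which had the most lens epithelium RNA, the log2 fold change of Mt1 was -0.024, from 3 Ct and 2 CS-exposed libraries. These were left out after the data were seen and include the 2 highest Mt1 values, so that a lower fold change follows from the choice and says nothing about other cell types. Between libraries of low Xist the log2 difference in Mt1 was 0.10, and between those of high Xist it was 0.82, each from 2 against 2 libraries and without a test.

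**Figure D1:**
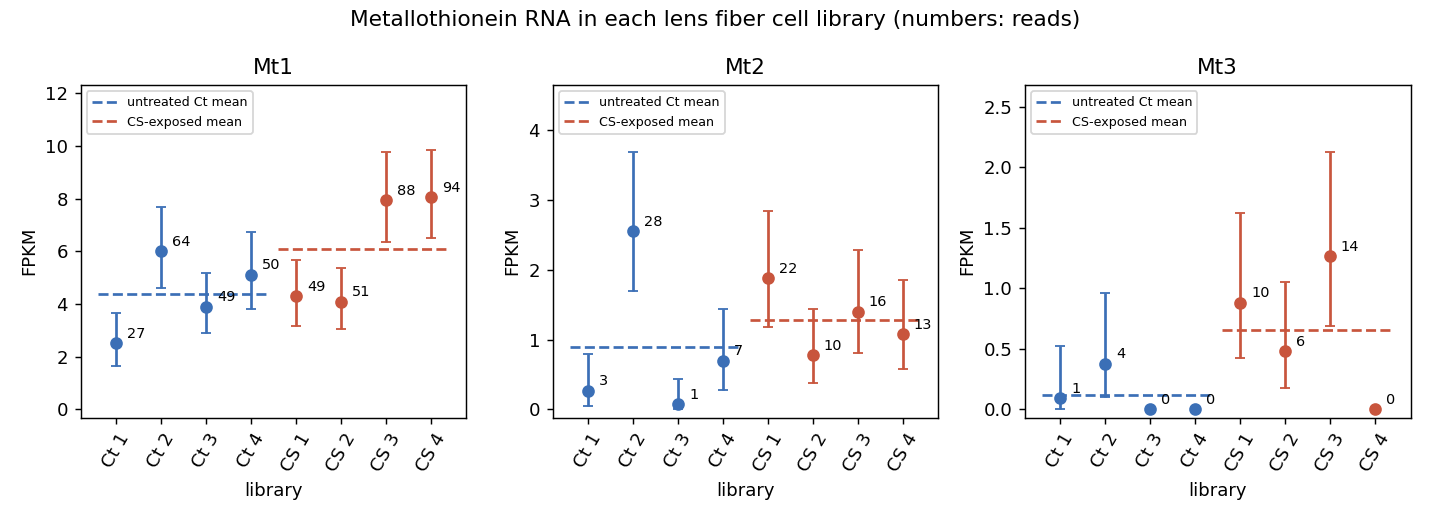
FPKM of Mt1, Mt2 and Mt3 in each of the 4 untreated Ct and 4 CS-exposed libraries, with whiskers for the 95% Poisson interval of the reads, the number of reads beside each point (no whisker at 0 reads), and dashed lines for the group means. The groups overlap for each gene, and the Ct libraries of Mt2 run from 1 to 28 reads.

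Mt2, the neighbour of Mt1 and usually induced with it, was at 0.271, 2.55, 0.0774 and 0.696 FPKM in Ct replicates 1 to 4 and at 1.88, 0.779, 1.40 and 1.08 FPKM in CS-exposed replicates 1 to 4. Ct replicate 2 was the highest of all 8 libraries, and the other 3 Ct libraries were below every CS-exposed library. The Ct libraries held from 28 reads (95% Poisson interval 18.6 to 40.5) in replicate 2 to 1 read (0.0253 to 5.57) in replicate 3. These intervals cover counting error only and are too narrow where reads, which carry no molecular identifiers, are not independent molecules. The mean was 0.899 ± 1.13 FPKM (SD, n = 4) in Ct and 1.28 ± 0.469 FPKM (SD, n = 4) in CS-exposed mice. The log2 fold change was 1.12 (standard error 0.67, 95% interval -0.34 to 2.58, limma p = 0.121, adjusted p = 0.956, exact permutation p = 0.257). It was 0.41 at a pseudocount of 1 and 1.42 at 0.01. Without Ct replicate 2 the log2 fold change was 1.82 with an unadjusted limma p of 0.00453, and without Ct replicate 3 it was 0.52 with a p of 0.369. By the ratio of mean FPKM, Mt2 was the only gene of the 7 beyond 2 SD of all log2 ratios (1.43-fold, where 2 SD was 1.40-fold and 3.6% of 9787 genes lay beyond it), and Mt1 lay just inside at 1.39-fold. Mt2 was among the 7 only through its CS-exposed mean, so nothing is read from its place beyond this limit. Its ratio was inside the limit without Ct replicate 1 (1.16-fold), 3 (1.095-fold) or 4 (1.33-fold) or CS-exposed replicate 1 (1.21-fold) or 3 (1.39-fold), and was 3.69-fold without Ct replicate 2. In GENCODE M21, 73.5% of the exon bases of Mt2 lie opposite the antisense gene Gm45774. Whether the authors' counting used strand is not given, so reads of the 2 genes cannot be told apart.

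Mt3, a metallothionein known mainly from the brain and retina, was at 0.0935, 0.377, 0 and 0 FPKM in Ct replicates 1 to 4 and at 0.881, 0.483, 1.27 and 0 FPKM in CS-exposed replicates 1 to 4. CS-exposed replicates 1, 2 and 3 were above every Ct library, and CS-exposed replicate 4 had no read, which allows up to 3.69 reads (upper bound of the 95% Poisson interval). In all, 5 reads were found in Ct and 30 in CS-exposed mice. The mean was 0.118 ± 0.178 FPKM (SD, n = 4) in Ct and 0.658 ± 0.543 FPKM (SD, n = 4) in CS-exposed mice, under the filter in both groups. Fitted without a filter, the log2 fold change was 1.60 (standard error 0.82, 95% interval -0.24 to 3.45, limma p = 0.0815, adjusted p = 0.906, exact permutation p = 0.171). It depended on the pseudocount, with 0.52 at a pseudocount of 1 and 2.61 at 0.01. The unadjusted limma p was 0.0339 without Ct replicate 2 (log2 fold change 2.09) and 0.00333 without CS-exposed replicate 4 (2.40). With any other single library left out the p was 0.112 to 0.206, and the log2 fold change was lowest (1.14) without CS-exposed replicate 3. Without Ct replicate 3 and CS-exposed replicates 3 and 4, left out after the data were seen, the p was 0.0344 (1.85). CS-exposed replicate 4 was the only CS-exposed library without an Mt3 read, so leaving it out raises the CS-exposed mean. Mt3 was highest in CS-exposed replicate 3, the library with the most rod photoreceptor RNA and Rpe65. CS-exposed replicate 2, with 59.3 FPKM of summed rod markers, had 0.483 FPKM of Mt3, and CS-exposed replicate 4, with 32.2 FPKM, had none. The part of retinal tissue in the Mt3 level was not tested.

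Summed over Mt1 and Mt2, metallothionein RNA was 5.28 ± 2.51 FPKM (SD, n = 4) in Ct and 7.38 ± 2.21 FPKM (SD, n = 4) in CS-exposed mice. As a share of all FPKM of a library, this was 0.000678% ± 0.000322 and 0.000947% ± 0.000286 (± SD, 4 libraries per group), a difference with an exact permutation p of 0.257 (two-sided). In 2 of 4 CS-exposed libraries the sum was above every Ct library. The ratio of Mt1 to Mt2 in FPKM ran from 2.35 to 50.5 in Ct and from 2.29 to 7.45 in CS-exposed libraries, the highest being Ct replicate 3, where Mt2 rested on 1 read.

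Mtf1, the transcription factor of the metal response, lies on chromosome 4 from 124802104 to 124849800. It was at 0.923, 1.03, 0.716 and 0.565 FPKM in Ct replicates 1 to 4 and at 0.745, 1.04, 1.2003 and 0.896 FPKM in CS-exposed replicates 1 to 4, with 78 to 188 reads. The groups overlapped, with 2 CS-exposed libraries above every Ct library. The means of 0.808 ± 0.208 and 0.972 ± 0.195 FPKM (± SD, 4 libraries per group) were below the filter, and the log2 fold change, fitted without a filter, was 0.25 (standard error 0.25, 95% interval -0.32 to 0.82, limma p = 0.347, exact permutation p = 0.286). With 1 library left out at a time it ranged from 0.11 to 0.36. It was -0.13 between libraries of low Xist and 0.63 between those of high Xist. A share of 8.09% of its exon bases lies opposite 1110065P20Rik.

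Slc30a1, the zinc exporter of the plasma membrane and the member of its family that MTF1 is known to control, lies on chromosome 1 from 191906767 to 191913247. It was at 1.10, 1.11, 1.23 and 0.970 FPKM in Ct replicates 1 to 4 and at 1.53, 1.26, 1.04 and 1.46 FPKM in CS-exposed replicates 1 to 4. In 3 of 4 CS-exposed libraries it was above every Ct library, and CS-exposed replicate 3, the library with the second highest Mt1, lay within the Ct range. The log2 fold change was 0.23 (standard error 0.19, 95% interval -0.19 to 0.65, limma p = 0.250, adjusted p = 0.961, exact permutation p = 0.171). The upper bound is a 1.57-fold level. The sign was the same between libraries of low Xist (0.30) and of high Xist (0.16).

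Slc30a5, which loads zinc into the early secretory pathway, lies on chromosome 13 from 100802648 to 100833427 and was at 5.15 to 6.00 FPKM in Ct and at 5.68 to 7.11 FPKM in CS-exposed libraries. The highest value was that of CS-exposed replicate 2, and 2 CS-exposed libraries were above every Ct library. Its mean was 5.57 ± 0.360 FPKM and 6.16 ± 0.664 FPKM (± SD, 4 libraries per group), and its log2 fold change 0.14 (95% interval -0.075 to 0.35, limma p = 0.182, exact permutation p = 0.143). Slc30a9, assigned to mitochondrial zinc export, lies on chromosome 5 from 67306955 to 67358443 and was the best measured of the 10 genes, with 823 to 951 reads per library. Its mean was 7.403 ± 0.326 FPKM in Ct and 7.25 ± 0.469 FPKM in CS-exposed mice (± SD, 4 libraries per group). Its log2 fold change of -0.031 had the narrowest interval of the 10 genes, -0.21 to 0.14, or a 0.867-fold to 1.11-fold level (limma p = 0.707, exact permutation p = 0.486).

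Slc39a1, a zinc importer of the plasma membrane, lies on chromosome 3 from 90248172 to 90253612 and had the highest mean of the 10 genes. It was at 9.87, 8.68, 8.11 and 6.97 FPKM in Ct replicates 1 to 4 and at 7.42, 7.88, 9.69 and 7.0 FPKM in CS-exposed replicates 1 to 4, so that all CS-exposed values lay within the Ct range. Its log2 fold change was -0.071 (95% interval -0.34 to 0.20, limma p = 0.576, exact permutation p = 0.629). Slc39a6, an importer of the same family on chromosome 18, was at 1.41 to 1.97 FPKM in Ct and 1.46 to 2.03 FPKM in CS-exposed libraries, with a log2 fold change of 0.064 (95% interval -0.31 to 0.44, limma p = 0.715, exact permutation p = 0.629). For both genes the sign differed between libraries of low Xist (-0.27 and 0.29) and of high Xist (0.13 and -0.16).

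Slc39a7, which releases zinc from the endoplasmic reticulum, lies on chromosome 17 from 34028269 to 34031682 and was listed at 0.145, 0.146, 0.194 and 0.0454 FPKM in Ct replicates 1 to 4 and at 0.292, 0.0356, 0.120 and 0.0760 FPKM in CS-exposed replicates 1 to 4. Ct libraries held 27 reads in all and CS-exposed libraries also 27. The CS-exposed libraries held both the highest and the lowest value, and the log2 fold change, fitted without a filter, was -0.080 (95% interval -0.95 to 0.79, limma p = 0.840, exact permutation p = 0.83). In GENCODE M21, 80.7% of its exon bases are also exons of Gm20427, a transcript on the same strand, which was listed at 0 in all 8 libraries. Counting on genes can leave out reads that fall on 2 genes, and the setting used is not given, so the level of Slc39a7 is uncertain. The part of this overlap in its low value was not tested.

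**Figure D2:**
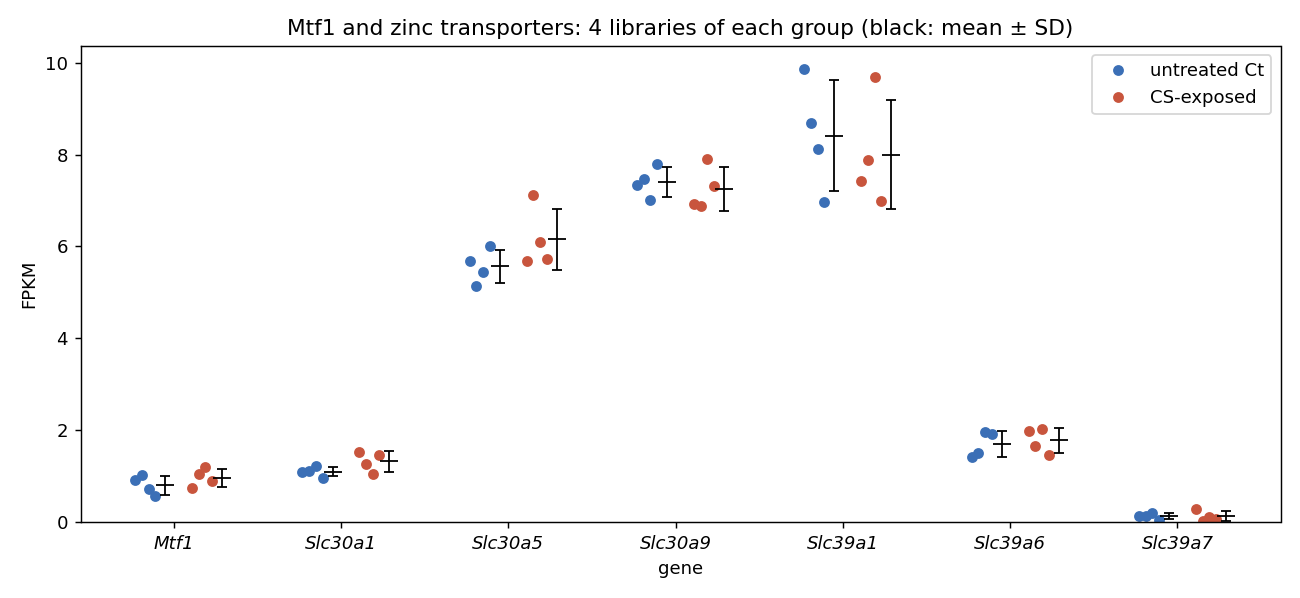
FPKM of Mtf1, 3 SLC30 exporters and 3 SLC39 importers, with a point for each of 4 untreated Ct and 4 CS-exposed libraries and a black mark for the mean ± SD of the group. The groups overlap for every gene shown.

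By mean FPKM over the 8 libraries the order of levels was Slc39a1 (8.20), Slc30a9 (7.33), Slc30a5 (5.86), Mt1 (5.24), Slc39a6 (1.74), Slc30a1 (1.21), Mt2 (1.09), Mtf1 (0.890), Mt3 (0.388) and Slc39a7 (0.132). Mt1 was above Slc39a6, and Slc39a6 above Slc30a1, in 8 of 8 libraries. The other neighbours in this order crossed in at least 1 library. Slc30a5 was above Mt1 in 5 of 8 libraries, Slc30a1 above Mt2 in 5, Mt2 above Mtf1 in 5, and Mt3 above Slc39a7 in 4, so that the order within these pairs is not fixed by the data. The relative spread among Ct libraries was largest for Mt3 (CV 152%) and Mt2 (126%), 34.5% for Mt1 and smallest for Slc30a9 (4.41%).

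The other zinc genes were taken from whole families. With the 10 genes included, 31 genes were listed (4 metallothioneins, 10 SLC30 and 14 SLC39 transporters, Mtf1, the zinc transporter Tmem163 and Cbwd1, a zinc chaperone family gene), of which 29 had a value above 0 and 18 passed the filter. None of the 18 had an unadjusted limma p under 0.05, against 4.83% of all genes tested, and 12 had a log2 fold change above 0 and 6 below, where 51.2% of all genes were above 0. Their median was 0.052. Mt2 and Slc39a2, both above 0, passed the filter only through their CS-exposed means, so nothing is read from their sign. A count of 0 of 18 is near that of all genes. The highest level of the families was that of Slc39a13, a zinc transporter of the Golgi and vesicles known for its role in connective tissue, with 14.1 ± 1.24 FPKM in Ct and 14.5 ± 0.304 FPKM in CS-exposed mice (± SD, 4 libraries per group) and a log2 fold change of 0.040 (95% interval -0.12 to 0.20).

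Among the exporters that passed the filter, Slc30a7 and Slc30a6, which also serve the secretory pathway, had log2 fold changes of -0.049 and -0.069, and Slc30a4, an exporter of vesicles, 0.034. The 6 SLC30 genes tested were split, with 3 above and 3 below 0. Among the importers, Slc39a10 and Slc39a3 of the plasma membrane had log2 fold changes of 0.065 and 0.10, Slc39a14, which also carries iron, manganese and cadmium, 0.13, Slc39a9 -0.17 and Slc39a11 -0.079. Slc39a2, at 0.747 ± 0.165 FPKM in Ct and 1.07 ± 0.320 FPKM in CS-exposed mice (± SD, 4 libraries per group), had the smallest p after Mt2 and Mt1 among the zinc family genes that passed the filter (log2 fold change 0.45, limma p = 0.129, exact permutation p = 0.171) and passed the filter only through its CS-exposed mean. Of the 9 SLC39 genes tested, 6 were above and 3 below 0. Cbwd1 had a log2 fold change of 0.0076. The importer Slc39a8, a known entry route of cadmium, was under 0.18 FPKM in every library.

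**Figure D3:**
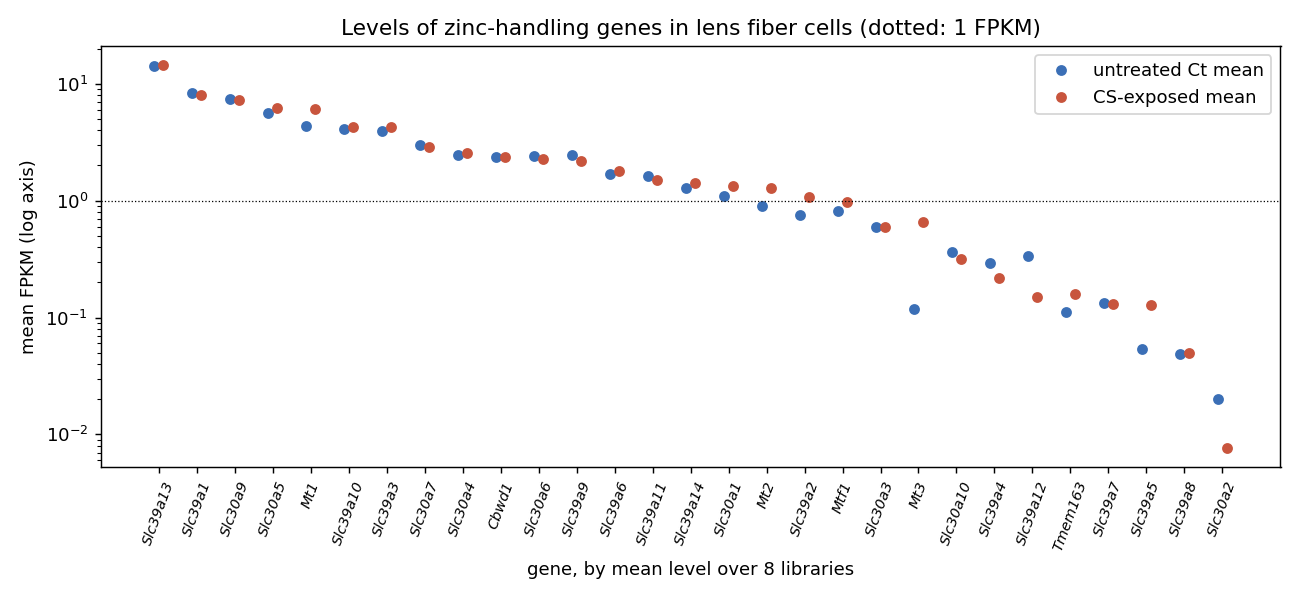
Mean FPKM of the 29 zinc family genes with a value above 0, on a log axis, in untreated Ct and CS-exposed mice, ordered by the mean of the 8 libraries. Slc39a13 leads at 14.3 FPKM, and of the metallothioneins only Mt1 lies above 1 FPKM in both groups.

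**Figure D4:**
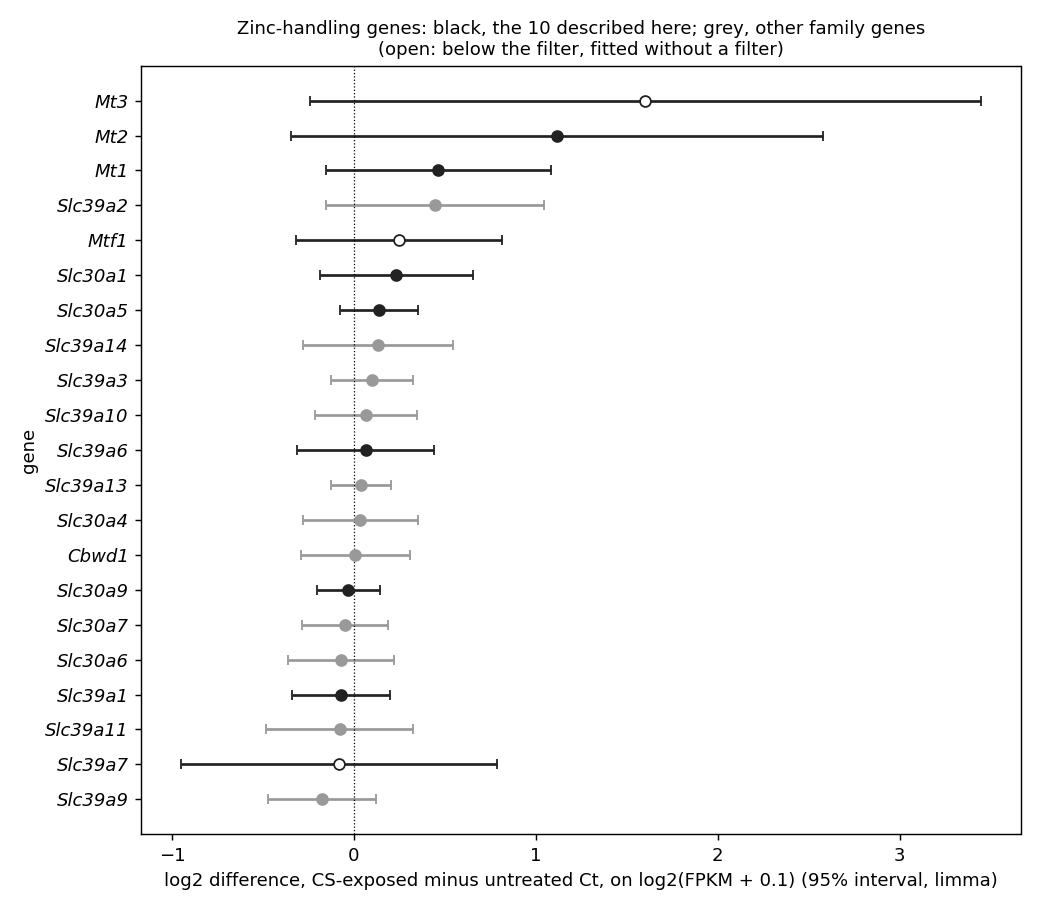
Log2 difference between CS-exposed and untreated Ct mice with its 95% interval from limma, on log2(FPKM + 0.1), for the 10 genes (black) and the other zinc family genes that passed the filter (grey), with open points for genes below the filter. Every interval includes 0, and the intervals of Mt2 and Mt3 are the widest.

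Genes of the wider response to metals and oxidants were listed as well. Of the 11, 8 passed the filter and 1 had an unadjusted limma p under 0.05, against 4.83% of all genes tested. This gene, Hmox1, which encodes the heme-degrading enzyme heme oxygenase and responds to cadmium and oxidants in many cells, was at 298, 318, 260 and 299 FPKM in Ct replicates 1 to 4 and at 327, 326, 361 and 348 FPKM in CS-exposed replicates 1 to 4. All CS-exposed libraries were above every Ct library, and groups that did not overlap were found for 3.08% of all genes tested (log2 fold change 0.22, standard error 0.060, limma p = 0.0040, adjusted p = 0.956, exact permutation p = 0.0286). Hmox1 was highest in CS-exposed replicates 3 and 4, of which the former had the most rod and glial marker RNA (93.4 and 13.2 FPKM in sum) and the latter the most red blood cell marker RNA (22.8 FPKM), and the part of these cells in its level was not tested. Gclc and Gclm, the subunits of the enzyme that starts glutathione synthesis, had log2 fold changes of -0.12 and 0.021, and Txnrd1, a thioredoxin reductase, 0.089. For Srxn1, Nqo1 and Slc7a11, an antioxidant enzyme, a quinone reductase and the cystine carrier, the values were 0.12, -0.072 and -0.16. The heat shock genes Hspa1a and Hspa1b, which metals can induce, were below the filter.

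The genes whose log2 values followed Mt1 most closely over the 8 libraries were Zfp133-ps (Pearson r = 0.96), Zfyve28 (0.95), Atraid (0.94), Pgm1 (0.94) and Msrb2 (0.93). For Mt2 they were Rps6 (0.96), which encodes a ribosomal protein, the copper transporter gene Atp7a (0.96), Etaa1 (0.95), Wdr44 (0.94) and Opa3 (0.94). These are the highest values among all genes tested, over the same 8 libraries, which differ in depth and tissue composition, and are given as a description. Mt1 and Mt2 had an r of 0.60 with each other, and Mt2 was at place 615 among the genes most like Mt1.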

How the data were processed

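RNA of lens FC was sequenced in 8 libraries, for which the authors deposited FPKM. The submitters' processing notes name STAR 2.5, HTSeq 0.6.1, DESeq2 and the build GRCm38. The annotation release, the strand setting and the gene lengths are not given in the sources used here. The authors also deposited group means and the log2 fold change, p-value and adjusted p-value of their comparison, which were not used.

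Groups and replicate numbers came from the sample titles. Genes whose mean reached 1.0 FPKM in CS-exposed or Ct mice entered the test, made on log2(FPKM + 0.1) by limma 3.58.1 (R 4.3.3, variance trend, two-sided, Benjamini-Hochberg over 9794 genes). Genes below the filter were fitted on the table without one. Single genes were also compared over all 70 assignments of libraries. Nothing in the labels or methods ties same-numbered libraries to the same animals, so no block was used in the reported fit. P-values set the difference between groups against the spread between pools, not between single mice. Reads were recovered from FPKM steps by trying up to 60000 reads, and the number of fragments rests on annotated gene lengths, with the same number reached by 776 of 9302 genes. Zinc family genes that passed the filter were named, and of other lists only genes that define a cell type, had a p under 0.05 or were needed for a question. The metal and oxidant genes without such a p and the zinc family genes below the filter were named after their values were seen. The genes and lists were chosen with earlier results of these data known. Fits and read recovery were tested on simulated data. Alternatives were other pseudocounts, filters, scalings, variance models, blocks, limma-voom on recovered reads, each library left out and, chosen after seeing the data, 3 libraries left out together and each library left out of the share of Mt1 and Mt2 and of the Mt2 ratio. Python 3.11.15 with scipy 1.17.1 was used for all else.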

Additional observations from a re-analysis of the deposited data

Results flagged for a closer look

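Among 40 groups of 4 libraries examined, in 2 the gap between 1 library and its nearest neighbour exceeded the 95% limit of Dixon's test, and chance gives 2. The summed glial markers were at 13.2 FPKM in CS-exposed replicate 3, against 7.53 to 8.18 FPKM in the other CS-exposed libraries, and Rlbp1, which the retinal pigment epithelium also expresses, made up 3.45 FPKM of it. The summed red blood cell markers were at 22.8 FPKM in CS-exposed replicate 4, against 0.50 to 4.23 FPKM in the others. These are the CS-exposed libraries in which Mt1 was highest, at 7.94 and 8.05 FPKM, and the part of these cells in the Mt1 level was not tested. No library stood apart in this way for any of the 10 metallothionein and zinc transport genes.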

How the results depend on the processing

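Under other settings, 185 values of the 10 genes kept their direction and their side of an unadjusted p of 0.05, 7 turned direction and 5 crossed to a p under 0.05. Without Ct replicate 3 and CS-exposed replicates 3 and 4, the log2 fold change was -0.024 for Mt1, 0.16 for Slc39a7 and 1.85 for Mt3. With 1 library left out at a time it ranged from 0.23 to 0.64 for Mt1, 0.52 to 1.82 for Mt2, 1.14 to 2.40 for Mt3, -0.17 to 0.0086 for Slc39a1, -0.016 to 0.15 for Slc39a6 and -0.37 to 0.14 for Slc39a7, the last 3 changing direction there. It ranged from 0.11 to 0.36 for Mtf1, 0.16 to 0.34 for Slc30a1, 0.068 to 0.17 for Slc30a5 and -0.072 to -0.0058 for Slc30a9. In the same fits, 0 to 1 of the genes of the 10 that passed the filter (Mt2, without Ct replicate 2), 0 to 1 of the zinc family genes that passed it, and 418 to 525 of all genes had an unadjusted p under 0.05, and 0 to 1 gene passed after adjustment (0 without Ct replicate 4, with 479 unadjusted). Mt3, fitted without a filter, had such a p without Ct replicate 2 and without CS-exposed replicate 4. The share of Mt1 and Mt2 in all FPKM was higher in CS-exposed mice by 0.000163 to 0.000409 percentage points.

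As reported, 473 genes had an unadjusted limma p under 0.05, 269 higher and 204 lower in CS-exposed mice, and 1 an adjusted p under 0.05. The split was 239 and 235 after median centring, 249 and 249 without a variance trend, 220 and 286 without CS-exposed replicate 3 and 231 and 248 without Ct replicate 4. The counts of unadjusted and adjusted calls were 226 and 1 with a minimum of 5 FPKM, 862 and 0 without a minimum, 498 and 0 without a variance trend, and 482 and 2 with limma-voom on recovered reads. With the Xist level as a term they were 490 and 1, and the unadjusted limma p was 0.0803 for Mt1, 0.120 for Mt2 and 0.0604 for Mt3. With the replicate number as a block they were 522 and 5, and Mt3 had an unadjusted p of 0.0477. Same-numbered libraries correlated in their deviations at 0.012, 0.078, 0.11 and 0.16 for numbers 1 to 4, and those numbered 2, 3 and 4, but not 1, matched best with their own number. Same-numbered libraries also shared a low or high Xist level. Since not every correlation was above 0.1 and the labels name no shared animals or batch, the numbers were not taken as pairs. The causes were not tested. Depth limits Mt2, Mt3 and Slc39a7, which had at most 28 reads in a library. The 3 genes below the filter were not fitted with limma-voom, which was run only on the genes that passed it.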

Other observations

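Among zinc family genes below the filter, Slc39a12, an importer known mainly from the brain, had the smallest unadjusted p of those fitted. It was at 0.336 ± 0.135 FPKM in Ct and 0.150 ± 0.105 FPKM in CS-exposed mice (± SD, 4 libraries per group). Its log2 fold change was -0.90 (95% interval -1.88 to 0.09), with a limma p of 0.0704 and an exact permutation p of 0.0571 in the fit without a filter. Slc30a3, an exporter of synaptic vesicles, was at 0.204 to 1.35 FPKM in CS-exposed and at 0.329 to 0.776 FPKM in Ct libraries, and Slc30a8, the exporter of insulin granules, was listed at 0 in every library.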
